A study of Mus musculus with 12 samples.

Results

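The 32 genes described here encode the enzymes that make cholesterol and fatty acids in mouse cells, together with the proteins that sense sterols and switch those enzymes on. They were listed by gene name, under a rule that uses no measured value but with earlier results of these data known, and all 32 were found among the 25965 genes measured, Msmo1 under its older name Sc4mol. By role, 8 belong to the part of the sterol pathway that runs from acetyl-CoA through mevalonate to squalene, 10 to the part from squalene to cholesterol, 6 to sterol sensing and transport, and 8 to fatty acid synthesis and desaturation. Messenger RNA was sequenced in 12 libraries from sorted mouse skin cells, in a study whose subject is the role of EGFR, the receptor of epidermal growth factor, as the hair shaft differentiates. RNA came from a PicoPure kit and was copied into cDNA with a SMARTer Ultra kit, per the labels' protocols. Each of 6 groups held 2 libraries, given here always in the same order. HFSC, hair follicle stem cells, comprised libraries L95 and L97, labelled knockout with the genotype EGFR_delta_LGR5, and the controls L136 and L94. ORS, the outer root sheath, comprised knockouts E358 and E359 of genotype EGFR_delta_ep and the controls E341 and E344. The group abbreviated IFE comprised knockouts E358 and E359 of genotype EGFR_delta_ep and the controls E341 and E360. All 6 control libraries carry the genotype EGFR_fl_fl, a floxed allele. The labels used here give neither age nor sex, nor the construct that deletes the allele, and do not say whether the 2 libraries of a group came from separate animals. All p-values therefore rest on the spread between libraries. That spread may be technical, although in the ORS controls it includes a difference in Xist, given below.

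Cholesterol synthesis condenses acetyl-CoA into mevalonate, builds squalene from it and closes squalene into lanosterol, which a chain of oxidations, reductions and isomerisations turns into cholesterol. The transcription factors of the SREBP family switch on these genes and those of fatty acid synthesis. When sterols are plentiful, the INSIG proteins hold SREBP and its escort SCAP in the endoplasmic reticulum, and when sterols are scarce the complex moves to the Golgi, where SREBP is cut free to enter the nucleus. In skin, cholesterol and fatty acids made by keratinocytes are used for membranes and for the lipid barrier, and the sebaceous gland makes them for sebum.

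Before the results, some facts of the whole series bear on them. Depth differed between compartments: HFSC libraries held 11.5 to 16.8 M reads in genes, ORS libraries 24.7 to 27.7 M and IFE libraries 11.4 to 13.2 M. These reads made up 26.9% to 28.9%, 50.6% to 54.6% and 27.8% to 29.6% of the library totals in that order. Levels are given as CPM, reads per 1000000 reads in genes after scaling the libraries to each other. Egfr itself was at 334 and 330 CPM in HFSC libraries labelled knockout and 390 and 429 CPM in HFSC controls (log2 difference -0.30, SE 0.82, adjusted p = 1), so Egfr was not called lower in the libraries labelled knockout. Reads were counted over the whole gene, and the deleted part is not given in the sources used here. It was at 3.70 and 55.0 CPM in ORS knockouts, against 275 and 247 CPM in ORS controls (log2 difference -4.09, SE 0.82, adjusted p = 0.378). In IFE, Egfr was at 0 and 0.321 CPM in knockouts, against 117 and 155 CPM in controls (log2 difference -7.72, SE 0.82, adjusted p = 0.00603). Xist, expressed from the inactive X chromosome of females, was at 5.87 and 1.19 CPM in HFSC libraries labelled knockout and 505 and 669 CPM in HFSC controls, and at 1910.1 and 1321 CPM in IFE knockouts and 2.88 and 0.981 CPM in IFE controls. Sex and genotype therefore cannot be told apart in HFSC and IFE, and in ORS the controls differed (1.02 and 1594 CPM) while both knockouts were high. The 6 stem cell markers summed to 22054 to 39533 CPM in HFSC libraries, 5738 to 7066 CPM in ORS libraries and 4428 to 6125 CPM in IFE libraries. They did not all separate HFSC: Cd34 was at 1330.1 to 2143 CPM in HFSC libraries and at most 5.87 CPM elsewhere, while Lgr5 averaged 277 ± 101 CPM in HFSC and 396 ± 72 CPM in ORS, and Nfatc1 214 ± 22 CPM in HFSC and 475 ± 64 CPM in ORS (SD, n = 4 each). The 5 epidermal markers summed to 6027 to 8232 CPM in IFE libraries and at most 351 CPM elsewhere. Krtdap, Krt1 and Krt10 carried this sum, with means of 4901, 1112 and 996 CPM in IFE. Lor and Ivl did not separate IFE: Lor averaged 0.0492, 11.2 and 9.38 CPM in HFSC, ORS and IFE, and Ivl 11.1, 0.207 and 0.466 CPM. One source label pairs IFE with the inner root sheath, whose 7 markers summed to 29.98 to 108 CPM in HFSC libraries, 7.34 to 28.9 CPM in ORS libraries and 12.1 to 40.4 CPM in IFE libraries. In IFE, Krt25 and Krt28 of these 7 were at 0 in every library, while Tchh averaged 11.4 ± 6.8 CPM and Krt73 8.004 ± 10.744 CPM (SD, n = 4). The 5 outer root sheath markers summed to 10557 to 11077 CPM in ORS libraries, below their sums in the other compartments (17956 to 25742 CPM). Single markers went different ways. Sox9 averaged 1804, 2141 and 271 CPM in HFSC, ORS and IFE, and Krt17 2954, 4047 and 3421 CPM, both highest in ORS. Krt5 (8627, 2983 and 9112 CPM) and Krt14 (5095, 1647 and 9730 CPM) were lowest in ORS. Krt75 (92.8, 1.15 and 0.04 CPM) was highest in HFSC. The compartments also differ in library series and in a tag of their titles, which cannot be told apart from the compartment.

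Promoters of 26 of the 32 genes were found in the RefSeq table of build GRCm38.p6, which holds 300 bases per start site, 250 before it and 50 after. Each of these 35 promoters was searched on both strands for the sterol regulatory element TCACNCCAC, the inverted CCAAT box ATTGG, the GC box GGGCGG and the E-box CACGTG. The inverted CCAAT box was present in 22 of the 35 promoters (62.9%), against 37.4% of all 32851 promoters of the table. GGGCGG was in 26 (74.3%, against 35.7% of all) and CACGTG in 6 (17.1%, against 7.15% of all). TCACNCCAC was in 1 promoter, that of Hmgcs1, and in 1.24% of all. These matches describe letters only, and no match says only that the letters are not in this window. Below, 5 promoters are printed 5′ to 3′ because the results turn on these genes. Hmgcs1 has the highest level per length and, among the 35 promoters searched, the only match to TCACNCCAC. Msmo1 and Cyp51 were highest in ORS cells. Insig1 and Insig2, a pair with like roles, had different patterns over the compartments. Capitals mark TCACNCCAC and ATTGG on either strand (CCAAT when ATTGG is on the other strand). The coordinates are chr13:119690101-119690400, plus strand for Hmgcs1; chr8:64733529-64733828, minus strand for Msmo1; chr5:4104648-4104947, minus strand for Cyp51; chr5:28071162-28071461, plus strand for Insig1; and chr1:121332540-121332839, minus strand for the outermost of the Insig2 start sites in the table.
Hmgcs1: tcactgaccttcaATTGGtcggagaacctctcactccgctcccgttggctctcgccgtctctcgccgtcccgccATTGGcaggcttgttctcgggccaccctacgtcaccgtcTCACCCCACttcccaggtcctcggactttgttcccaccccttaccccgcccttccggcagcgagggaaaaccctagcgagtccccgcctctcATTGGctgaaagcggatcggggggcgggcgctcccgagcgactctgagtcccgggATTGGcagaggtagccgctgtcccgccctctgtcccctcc
Msmo1: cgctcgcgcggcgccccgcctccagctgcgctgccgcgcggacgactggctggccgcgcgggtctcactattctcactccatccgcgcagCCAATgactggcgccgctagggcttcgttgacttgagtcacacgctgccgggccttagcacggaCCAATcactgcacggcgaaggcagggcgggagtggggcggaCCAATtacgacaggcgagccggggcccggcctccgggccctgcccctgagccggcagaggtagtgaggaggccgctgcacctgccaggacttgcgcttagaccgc
Cyp51: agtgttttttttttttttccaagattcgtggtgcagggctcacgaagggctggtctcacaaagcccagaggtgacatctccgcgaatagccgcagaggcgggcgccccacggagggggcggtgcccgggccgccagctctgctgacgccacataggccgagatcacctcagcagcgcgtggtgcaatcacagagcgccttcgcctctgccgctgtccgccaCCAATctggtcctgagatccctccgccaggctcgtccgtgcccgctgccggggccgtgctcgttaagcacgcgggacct
Insig1: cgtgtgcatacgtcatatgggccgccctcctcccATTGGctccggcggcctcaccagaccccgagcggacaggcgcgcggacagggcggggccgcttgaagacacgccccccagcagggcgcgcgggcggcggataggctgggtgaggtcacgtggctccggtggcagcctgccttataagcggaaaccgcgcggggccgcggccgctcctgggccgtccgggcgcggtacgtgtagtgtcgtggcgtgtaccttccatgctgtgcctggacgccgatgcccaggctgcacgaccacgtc
Insig2: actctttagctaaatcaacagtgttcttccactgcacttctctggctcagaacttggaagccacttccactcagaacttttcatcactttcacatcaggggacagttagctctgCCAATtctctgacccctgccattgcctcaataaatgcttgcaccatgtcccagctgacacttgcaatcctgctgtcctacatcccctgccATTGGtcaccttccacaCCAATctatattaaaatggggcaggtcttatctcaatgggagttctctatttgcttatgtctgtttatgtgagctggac

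Hmgcs1, the enzyme that makes HMG-CoA, held 4 copies of ATTGG and the match to TCACNCCAC 137 bases before its start site. Msmo1 and Insig2 each held 3 copies of ATTGG counted on either strand, and Cyp51 and Insig1 held 1 each. The other start sites of Insig2 in the table had neither motif.

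Of the 32 genes, 31 passed the filter on low values and were tested. All but Fads1 passed in every library, and Fads1 passed in 11 of 12. Fads2, a desaturase of polyunsaturated fatty acids, had 38 reads over all 12 libraries, 17 at most in any of them, and was not tested. Per kilobase of exon, mean levels over the 12 libraries ran over a wide range. Hmgcs1 was highest at 69.0 CPM per kb, followed by Insig2 at 36.5, Pmvk at 29.4, Ebp at 29.2 and Acat2 at 25.4 CPM per kb. Lowest among the tested genes were Acaca at 1.27, Idi1 at 2.18 and Lss at 2.72 CPM per kb, and Fads2 was at 0.0535 CPM per kb.

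The mean log2 level of the 31 genes was highest in ORS. It was 4.995 and 5.19 in HFSC libraries labelled knockout, 5.50 and 5.14 in HFSC controls, 5.40 and 5.63 in ORS knockouts, 5.70 and 5.71 in ORS controls, 5.16 and 5.37 in IFE knockouts, and 5.27 and 4.93 in IFE controls, on the log2(CPM + 0.5) scale. The ORS libraries lay above those of HFSC and IFE except that HFSC control L136 exceeded ORS knockout E358. Over the 4 libraries of a compartment the mean was 5.21 ± 0.21 in HFSC, 5.61 ± 0.14 in ORS and 5.18 ± 0.19 in IFE (SD, n = 4 each), while that of all genes tested was 4.001 ± 0.03, 3.87 ± 0.06 and 3.71 ± 0.09. The roles did not follow one order. Sterol sensing genes averaged 5.83 ± 0.13 in HFSC, 5.66 ± 0.15 in ORS and 4.82 ± 0.27 in IFE, with every HFSC and ORS library above every IFE library. Fatty acid genes averaged 4.997 ± 0.11, 5.69 ± 0.29 and 4.75 ± 0.23 in the same order of compartments, and every ORS library was above all others. Genes from mevalonate to squalene were at 4.88 ± 0.44, 5.41 ± 0.23 and 5.32 ± 0.40, and those from squalene to cholesterol at 5.25 ± 0.24, 5.69 ± 0.31 and 5.60 ± 0.21, with overlapping libraries. In bulk samples, fewer cells of a type and less RNA per cell cannot be told apart.

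**Figure D1:**
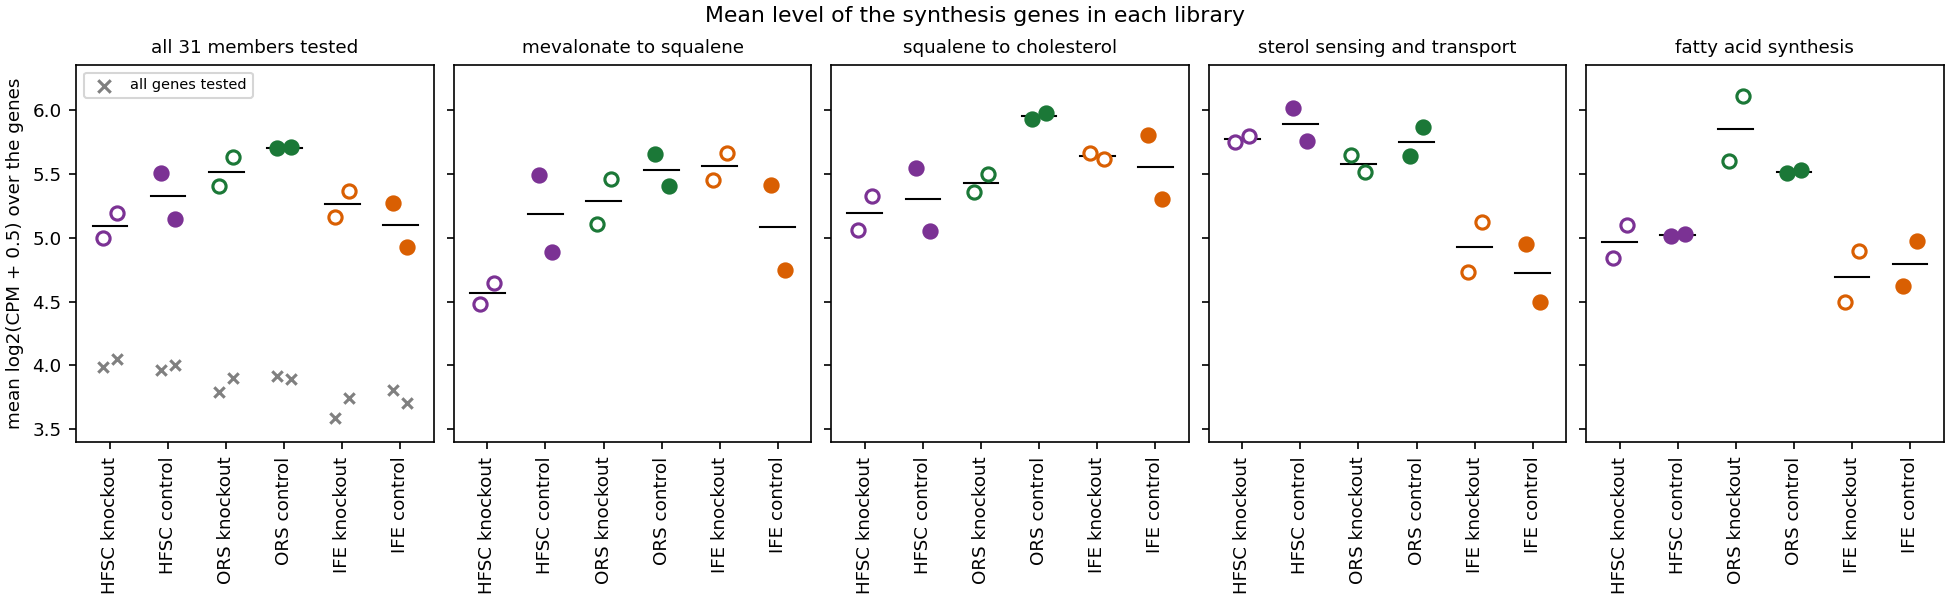
Mean log2(CPM + 0.5) of the 31 tested genes and of each role (panels) in each library; circles are libraries (open, labelled knockout; filled, control), bars are means of 2 libraries and grey crosses the mean of all genes tested. Sterol sensing genes sit lowest in IFE libraries (4.49 to 5.12), and fatty acid genes sit highest in ORS libraries (5.51 to 6.11).

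The libraries of the 2 genotypes were next averaged to ask how the compartments differ. In HFSC against ORS, 2 of the 31 genes were higher (14.4% of all genes tested were higher) and 6 lower (14.2%), so that 8 were called, where 28.6% of all genes were. In HFSC against IFE, 4 were higher (19.7% of all genes) and 4 lower (16.3%), again 8 called, against 36.0% of all genes. In ORS against IFE, 9 were higher (10.4% of all genes) and 1 lower (9.00%), 10 called in all, against 19.4% of all genes. The share called was thus below or near that of all genes in both HFSC comparisons. The libraries of the compartments did not overlap for 12 of the 31 genes in HFSC against ORS (33.9% of all genes), 5 in HFSC against IFE (34.0%) and 8 in ORS against IFE (20.4%). The median log2 difference over the 31 genes was -0.42 in HFSC against ORS (0.03 over all genes tested), -0.10 in HFSC against IFE (0.18 over all genes) and 0.29 in ORS against IFE (0.11 over all genes). A gene was called at an adjusted p under 0.05 (limma, Benjamini-Hochberg over 15251 genes, two-sided). In total 16 of the 31 genes were called in at least 1 comparison, where 47.8% of all genes tested were, and 15 in none. The highest mean level was in HFSC for 7 genes, in ORS for 15 and in IFE for 9. The control groups alone were also compared, within the same fit of all 12 libraries. Knockout libraries thus still entered the spread and the scaling. This setting is named control libraries only below. With it, 4, 5 and 2 genes were called in the 3 comparisons, where 2408, 3336 and 1385 of the 15251 genes tested were. The median in HFSC against IFE was then 0.18. The counts also moved with the deposited values, which divide by the library total, carry no TMM scaling and hold 0.9 read for a gene without reads. With them 1 gene was higher and 21 lower in HFSC against ORS (71% called, against 48.8% of all genes). In ORS against IFE 24 were higher and 0 lower (77.4% called, against 52.5% of all genes). The median of all genes moved by -0.94 and 0.97. Relative to the median of all genes, the median of the 31 genes was -0.45 and 0.17 with the scaled CPM and -0.50 and 0.19 with the deposited values.

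**Figure D2:**
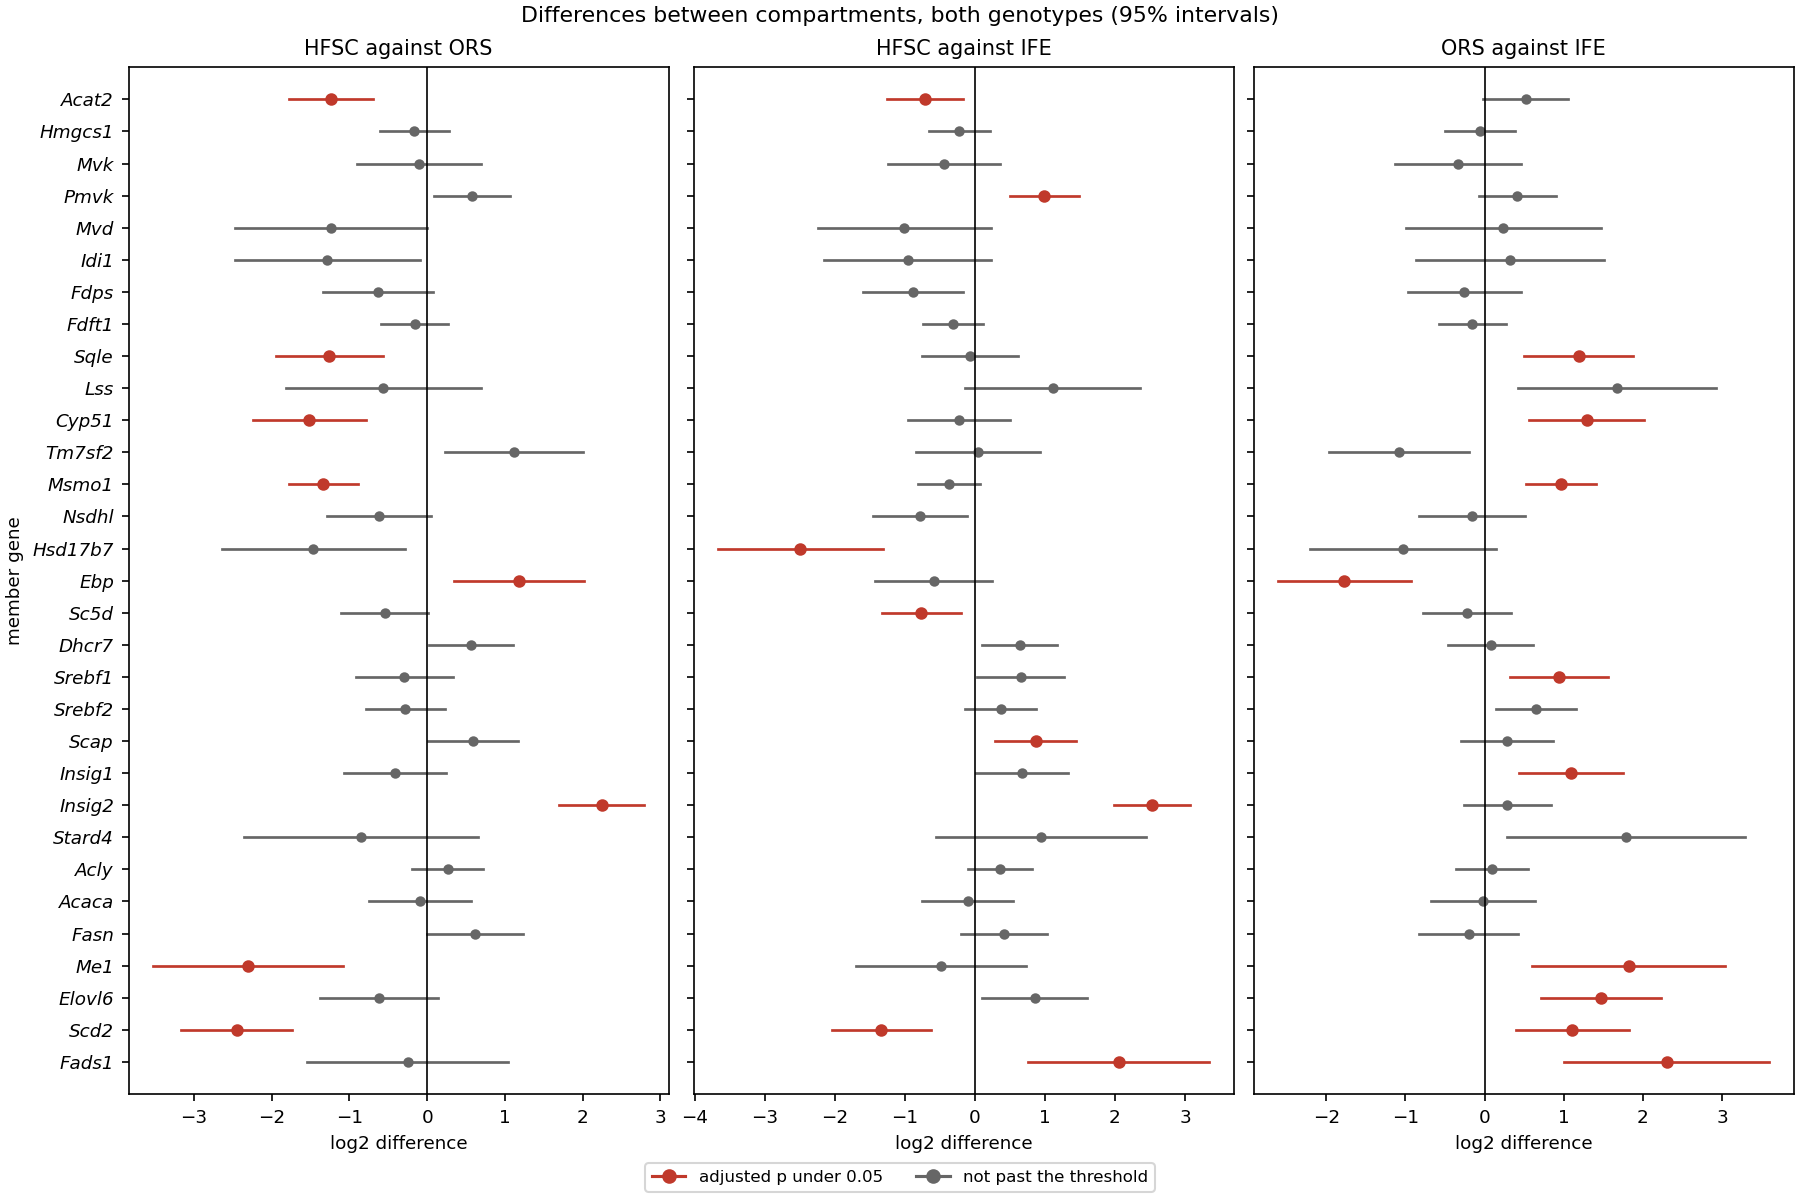
Log2 difference of each tested gene between compartments over both genotypes (points) with its 95% interval (lines), red where the adjusted p was under 0.05. Insig2 stands out to the right in both HFSC panels (2.24 and 2.53). Scd2 lies to the left in both (-2.44 and -1.33), with Me1 close to it against ORS and Hsd17b7 further left against IFE.

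Among the genes from acetyl-CoA to squalene, 2 of 8 were called in at least 1 comparison (47.8% of all genes). Acat2 was at 29.8 and 29.1 CPM in HFSC libraries labelled knockout, 56.6 and 41.7 CPM in HFSC controls, 105 and 71.1 CPM in ORS knockouts, 104 and 82.8 CPM in ORS controls, 61.2 and 59.2 CPM in IFE knockouts and 87.3 and 47.8 CPM in IFE controls. This gene encodes the cytosolic thiolase that makes acetoacetyl-CoA. The HFSC libraries all lay below the ORS libraries, and Acat2 was lower in HFSC than in ORS (log2 difference -1.23, SE 0.25, adjusted p = 0.00277, and 0.1 with control libraries only). It was also lower in HFSC than in IFE (log2 difference -0.71, SE 0.25, adjusted p = 0.0409), a call that held in 1 of 8 fits that left out 1 library, the one without IFE control E360; without any of the other 7 the adjusted p was 0.0516 to 0.139, and with control libraries only it was 0.455. Pmvk had 58.8 and 73.6 CPM in HFSC libraries labelled knockout, 76.9 and 68.5 CPM in HFSC controls, 53.1 and 43.4 CPM in ORS knockouts, 46.2 and 42.9 CPM in ORS controls, 35.5 and 43.6 CPM in IFE knockouts and 36.1 and 25.4 CPM in IFE controls. Pmvk encodes phosphomevalonate kinase. Its HFSC libraries lay above all others, and the gene was 1.99-fold higher in HFSC than in IFE (log2 difference 0.99, SE 0.23, adjusted p = 0.00469), a call that held under every alternative. In HFSC against ORS, Pmvk did not pass (log2 difference 0.57, SE 0.23, adjusted p = 0.0761). The other 6 were not called between compartments. Over the 12 libraries, Mvk, mevalonate kinase, ranged from 15.2 to 40.6 CPM, Fdps, which makes farnesyl diphosphate, from 14.98 to 50.9 CPM and Mvd from 2.06 to 24.0 CPM. Hmgcs1 averaged 296 ± 118 CPM in HFSC, 324 ± 79 CPM in ORS and 331 ± 45 CPM in IFE (SD, n = 4 each). Idi1, an isomerase of isoprenoid building blocks, was at 4.22 ± 2.97, 10.8 ± 5.2 and 7.84 ± 2.71 CPM.

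From squalene to cholesterol, 6 of 10 genes were called in at least 1 comparison (47.8% of all genes), and 3 of these had their highest mean in ORS. Msmo1 was at 74.3 and 82.7 CPM in HFSC libraries labelled knockout, 52.3 and 75.7 CPM in HFSC controls, 96.3 and 161 CPM in ORS knockouts, 279 and 231 CPM in ORS controls, 79.5 and 86.3 CPM in IFE knockouts and 94.5 and 105 CPM in IFE controls. Msmo1 (chr8:64718139-64733792, minus strand, mm10) encodes the oxidase that removes methyl groups from lanosterol-derived sterols. ORS libraries were all above HFSC libraries, while ORS knockout E358 lay within the range of the IFE libraries. The gene was lower in HFSC than in ORS (log2 difference -1.34, SE 0.20, adjusted p = 0.000425) and 1.95-fold higher in ORS than in IFE (log2 difference 0.96, SE 0.20, adjusted p = 0.00602). Both calls held under every alternative, with log2 differences of -2.33 and 1.95 with the deposited values. Cyp51 had 33.0 and 35.6 CPM in HFSC libraries labelled knockout, 47.0 and 22.0 CPM in HFSC controls, 70.0 and 118 CPM in ORS knockouts, 99.99 and 101 CPM in ORS controls, 62.4 and 26.3 CPM in IFE knockouts and 31.3 and 44.1 CPM in IFE controls. Cyp51, the lanosterol demethylase, was lower in HFSC than in ORS (log2 difference -1.51, SE 0.33, adjusted p = 0.00498). That call held under every alternative, with a log2 difference of -2.52 with the deposited values. In ORS against IFE, Cyp51 was 2.45-fold higher (log2 difference 1.29, SE 0.33, adjusted p = 0.0183), with no overlap between the libraries. This second call was lost without IFE control E341, ORS control E341, ORS control E344 or ORS knockout E359 (adjusted p 0.0580 to 0.0772) and with control libraries only (0.0861).

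Sqle stood at 37.7 and 40.6 CPM in HFSC libraries labelled knockout, 68.9 and 30.6 CPM in HFSC controls, 75.1 and 120.5 CPM in ORS knockouts, 88.6 and 135 CPM in ORS controls, 46.1 and 56.3 CPM in IFE knockouts and 27.8 and 53.7 CPM in IFE controls. Sqle encodes squalene epoxidase, which introduces oxygen into squalene. Every ORS library lay above every HFSC and IFE library. Sqle was lower in HFSC than in ORS (log2 difference -1.26, SE 0.32, adjusted p = 0.0105, adjusted p 0.0540 without ORS control E344 and 0.0523 without HFSC control L94) and higher in ORS than in IFE (log2 difference 1.19, SE 0.32, adjusted p = 0.0203). The call against IFE was lost without IFE control E341, ORS control E344, IFE knockout E358 or ORS knockout E359 (adjusted p 0.0551 to 0.0921). With control libraries only the adjusted p was 0.084 in HFSC against ORS and 0.06 in ORS against IFE. Lss, which closes the squalene ring into lanosterol, was not called in ORS against IFE (log2 difference 1.67, SE 0.57, adjusted p = 0.0617), where its IFE libraries ranged from 2.76 to 34.4 CPM.

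Ebp, Hsd17b7 and Sc5d had their highest means in IFE instead. Ebp was at 70.2 and 61.5 CPM in HFSC libraries labelled knockout, 75.5 and 55.5 CPM in HFSC controls, 45.8 and 14.5 CPM in ORS knockouts, 36.6 and 27.0 CPM in ORS controls, 98.4 and 121 CPM in IFE knockouts and 150.3 and 52.6 CPM in IFE controls. Ebp encodes a sterol isomerase and lies on the X chromosome. It was lower in ORS than in IFE (log2 difference -1.77, SE 0.38, adjusted p = 0.00711), and all ORS libraries lay below all IFE libraries. In HFSC against ORS it was higher (log2 difference 1.18, SE 0.38, adjusted p = 0.0378), but this call held only without ORS knockout E358, and without any of the other 7 libraries the adjusted p was 0.0661 to 0.135. With the deposited values neither call held (log2 difference -0.81, adjusted p 0.11, in ORS against IFE, and 0.20, adjusted p 0.705, in HFSC against ORS), nor with control libraries only (adjusted p 0.117 and 0.246). Hsd17b7 had 4.16 and 20.8 CPM in HFSC libraries labelled knockout, 20.04 and 6.89 CPM in HFSC controls, 29.8 and 46.9 CPM in ORS knockouts, 27.8 and 20.9 CPM in ORS controls, 92.2 and 55.0 CPM in IFE knockouts and 95.2 and 30.1 CPM in IFE controls. Hsd17b7 encodes a sterol ketone reductase. The HFSC libraries lay below all IFE libraries, with a fold of 0.178 (log2 difference -2.49, SE 0.54, adjusted p = 0.00346). The adjusted p was 0.0656 with control libraries only. Sc5d was at 51.0 and 62.7 CPM in HFSC libraries labelled knockout, 45.9 and 35.5 CPM in HFSC controls, 53.5 and 55.9 CPM in ORS knockouts, 80.0 and 99.2 CPM in ORS controls, 85.8 and 105 CPM in IFE knockouts and 104 and 47.2 CPM in IFE controls. Sc5d, a sterol desaturase near the end of the pathway, was lower in HFSC than in IFE (log2 difference -0.76, SE 0.26, adjusted p = 0.0358), although the libraries overlapped. The Sc5d call held only without IFE control E360 or IFE knockout E358, and without any of the other 6 libraries the adjusted p was 0.0530 to 0.128, and 0.151 with control libraries only. Tm7sf2, a sterol reductase, Nsdhl, a sterol dehydrogenase, and Dhcr7 were not called between compartments and ranged from 5.43 to 35.0, 30.2 to 101 and 41.6 to 98.8 CPM in that order.

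Of the 6 sensing genes, 4 were called in at least 1 comparison (47.8% of all genes), and Insig2 had the smallest p of the 31 genes in both HFSC comparisons. Insig2 was at 313 and 252 CPM in HFSC libraries labelled knockout, 210.1 and 321 CPM in HFSC controls, 62.3 and 51.8 CPM in ORS knockouts, 48.7 and 65.6 CPM in ORS controls, 54.4 and 25.6 CPM in IFE knockouts and 58.4 and 56.7 CPM in IFE controls. Insig2 (chr1:121304353-121332589, minus strand, mm10) encodes one of the pair of proteins that retain SCAP in the endoplasmic reticulum. The 4 HFSC libraries lay between 210.1 and 321 CPM, and the highest of the other 8 was at 65.6 CPM. Insig2 was 4.73-fold higher in HFSC than in ORS (log2 difference 2.24, SE 0.25, adjusted p = 4.71e-05) and 5.77-fold higher than in IFE (log2 difference 2.53, SE 0.25, adjusted p = 1.31e-05). Both calls held under every alternative, while the size against ORS did not: with the deposited values its log2 difference was 1.26. Insig1 was at 24.8 and 30.6 CPM in HFSC libraries labelled knockout, 29.3 and 22.5 CPM in HFSC controls, 30.02 and 28.7 CPM in ORS knockouts, 31.2 and 59.5 CPM in ORS controls, 27.5 and 24.3 CPM in IFE knockouts and 10.6 and 10.3 CPM in IFE controls. Insig1, its partner, which is itself a target of SREBP, had another pattern: it did not pass in HFSC against ORS (log2 difference -0.42, SE 0.30, adjusted p = 0.338) or in HFSC against IFE (log2 difference 0.67, SE 0.30, adjusted p = 0.102). It was higher in ORS than in IFE (log2 difference 1.09, SE 0.30, adjusted p = 0.0249), but the call was lost without ORS control E344, ORS knockout E358, ORS knockout E359 or IFE control E360 (adjusted p 0.0502 to 0.119), with voom weights (0.0758) and with separate fits (0.0608).

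The SREBP genes and their escort were each called at most once. Srebf1 was at 48.6 and 49.6 CPM in HFSC libraries labelled knockout, 62.4 and 39.4 CPM in HFSC controls, 67.3 and 64.8 CPM in ORS knockouts, 47.7 and 64.4 CPM in ORS controls, 18.8 and 38.9 CPM in IFE knockouts and 30.7 and 42.2 CPM in IFE controls. Srebf1, the SREBP best known for fatty acid genes, was higher in ORS than in IFE (log2 difference 0.94, SE 0.28, adjusted p = 0.0359), with no overlap of libraries. The Srebf1 call held only without IFE knockout E359 or IFE control E360, and without any of the other 6 libraries the adjusted p was 0.0600 to 0.130. With control libraries only it was 0.416, at a log2 difference of 0.62. Scap had 59.8 and 54.0 CPM in HFSC libraries labelled knockout, 59.0 and 67.8 CPM in HFSC controls, 41.5 and 34.3 CPM in ORS knockouts, 49.7 and 35.4 CPM in ORS controls, 30.6 and 53.5 CPM in IFE knockouts and 21.4 and 31.9 CPM in IFE controls. Scap was higher in HFSC than in IFE (log2 difference 0.87, SE 0.27, adjusted p = 0.0233), again with no overlap. This call too held only without IFE control E360 or IFE knockout E359 (adjusted p 0.0502 to 0.0771 without any of the other 6). Srebf2, the SREBP best known for sterol genes, averaged 63.0 ± 19.7 CPM in HFSC, 74.2 ± 9.5 CPM in ORS and 47.4 ± 8.2 CPM in IFE (SD, n = 4 each) and was not called. Stard4, a sterol carrier, was at 25.2 ± 6.7, 46.3 ± 13.7 and 20.1 ± 17.6 CPM and was not called either. All 6 sensing genes had a log2 difference above 0 in HFSC against IFE (median 0.77) and in ORS against IFE (median 0.80), where 8623 and 8478 of the 15251 genes tested did.

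Of the 7 fatty acid genes tested, 4 were called in at least 1 comparison (47.8% of all genes), each of them in ORS against IFE. Scd2 was at 20.2 and 66.8 CPM in HFSC libraries labelled knockout, 30.1 and 27.5 CPM in HFSC controls, 242 and 259 CPM in ORS knockouts, 154 and 108 CPM in ORS controls, 64.1 and 79.2 CPM in IFE knockouts and 74.1 and 125 CPM in IFE controls. Scd2 (chr19:44293676-44306864, plus strand, mm10) encodes a stearoyl-CoA desaturase, which makes monounsaturated fatty acids. Its highest HFSC library was below the lowest ORS library. Scd2 was lower in HFSC than in ORS (log2 difference -2.44, SE 0.33, adjusted p = 0.000172) and lower than in IFE (log2 difference -1.33, SE 0.33, adjusted p = 0.00735). Both calls held under every alternative, with log2 differences of -3.46 and -1.36 with the deposited values. It was higher in ORS than in IFE (log2 difference 1.11, SE 0.33, adjusted p = 0.0332), with overlap. That call held only without IFE knockout E359 or IFE control E360, and without any of the other 6 libraries the adjusted p was 0.0594 to 0.122. With control libraries only the log2 difference was 0.42 and the adjusted p 0.668. Elovl6 had 28.0 and 47.7 CPM in HFSC libraries labelled knockout, 77.1 and 79.6 CPM in HFSC controls, 73.0 and 82.6 CPM in ORS knockouts, 93.1 and 82.0 CPM in ORS controls, 38.4 and 13.9 CPM in IFE knockouts and 54.9 and 25.3 CPM in IFE controls. Elovl6 lengthens palmitate to stearate. ORS libraries all lay above IFE libraries, and Elovl6 was 2.77-fold higher in ORS (log2 difference 1.47, SE 0.35, adjusted p = 0.0113). The adjusted p was 0.155 with control libraries only.

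Me1 was at 11.2 and 4.99 CPM in HFSC libraries labelled knockout, 3.46 and 4.26 CPM in HFSC controls, 35.6 and 42.9 CPM in ORS knockouts, 16.4 and 26.9 CPM in ORS controls, 10.9 and 17.2 CPM in IFE knockouts and 1.52 and 10.9 CPM in IFE controls. Me1 encodes malic enzyme, a source of NADPH for lipid synthesis. It was lower in HFSC than in ORS (log2 difference -2.30, SE 0.56, adjusted p = 0.00865), where the libraries did not overlap, and with control libraries only the adjusted p was 0.0705. In ORS against IFE it was higher (log2 difference 1.82, SE 0.56, adjusted p = 0.0395), from 1.19 without IFE control E341 to 2.44 without IFE control E360 on the log2 scale. The Me1 call against IFE held only without IFE knockout E359 or IFE control E360 (adjusted p 0.0718 to 0.137 without any of the other 6, and 0.117 with control libraries only). Fads1 was at 13.8 and 21.8 CPM in HFSC libraries labelled knockout, 21.5 and 21.3 CPM in HFSC controls, 19.4 and 43.2 CPM in ORS knockouts, 21.3 and 15.6 CPM in ORS controls, 0.399 and 6.10 CPM in IFE knockouts and 6.27 and 12.4 CPM in IFE controls. Fads1 desaturates polyunsaturated fatty acids. Its IFE libraries lay below all others. It was higher in HFSC than in IFE (log2 difference 2.05, SE 0.59, adjusted p = 0.018) and in ORS than in IFE (log2 difference 2.30, SE 0.59, adjusted p = 0.0181). The size moved with the IFE libraries kept: without knockout E358, at 0.399 CPM, the log2 differences were 1.33 and 1.58, and without IFE knockout E359 they were 2.77 and 3.02. With control libraries only they were 1.23 and 1.01, and neither call held (adjusted p 0.34 and 0.54). The first call was lost without IFE control E341, HFSC control L136, HFSC control L94 or HFSC knockout L97 (adjusted p 0.0547 to 0.0648). The second was lost without IFE control E341, ORS control E341 or ORS knockout E359 (0.0580 to 0.0764). Acly, Acaca and Fasn, the enzymes that turn citrate into palmitate, were called in none of the comparisons. Fasn averaged 64.5 ± 11.5 CPM in HFSC, 43.5 ± 15.6 CPM in ORS and 48.1 ± 7.8 CPM in IFE (SD, n = 4 each), and Acaca 20.8 ± 3.6, 22.2 ± 3.8 and 22.2 ± 2.2 CPM.

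**Figure D3:**
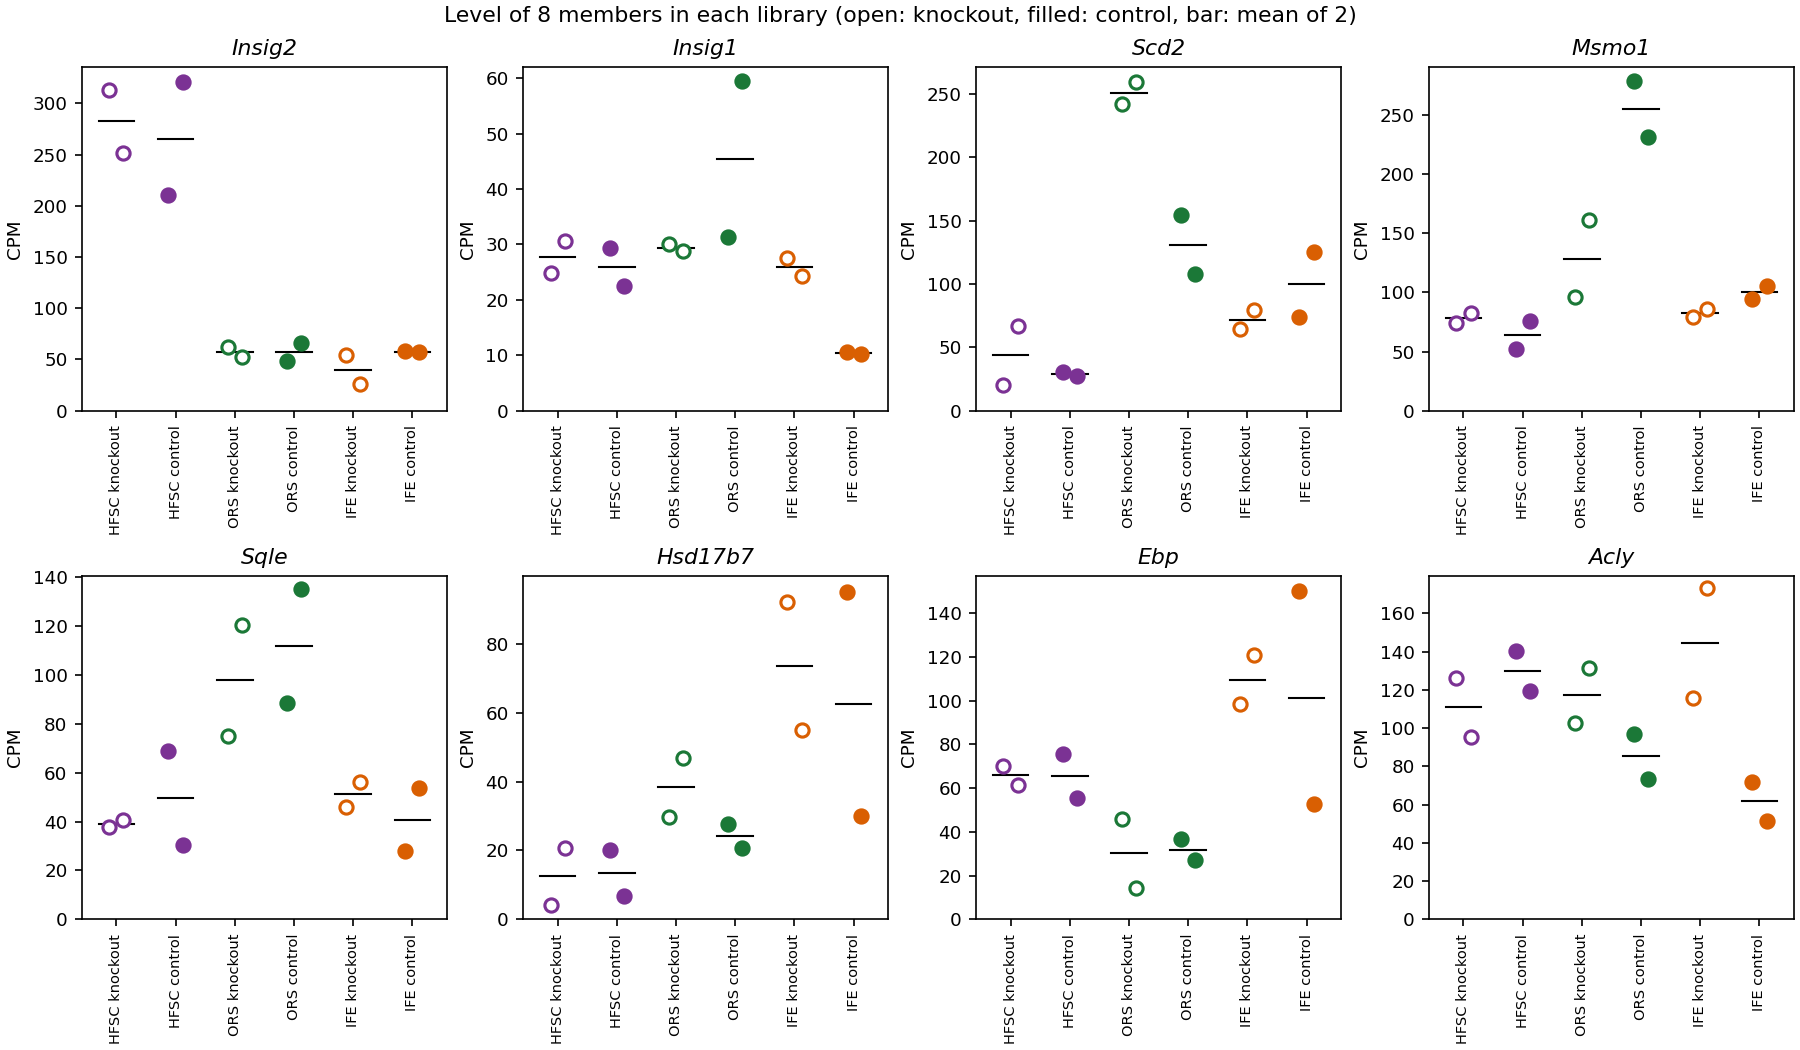
CPM of 8 genes in each library (open circles, labelled knockout; filled circles, control; bars, means of 2 libraries), each panel with its own axis from 0. Insig2 is high in all 4 HFSC libraries, Scd2, Msmo1 and Sqle are highest in ORS libraries, and Acly lies at 116 and 173 CPM in IFE knockouts, against 71.7 and 51.6 CPM in IFE controls.

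Markers of other lipid-making cells were summed beside these differences. The 12 sebocyte markers summed to 825 to 1158 CPM in HFSC libraries, with 4 of 12 at 0 in each genotype, to 334 to 662 CPM in ORS libraries and to 171 to 287 CPM in IFE libraries. Most of the HFSC sum came from Krt79, Mgst1 and Plin2, with mean levels of 361 ± 157, 303 ± 77 and 199.8 ± 66.1 CPM (SD, n = 4 each). Awat1, Elovl3 and Mc5r of this list were at 0 in all HFSC and IFE libraries. Other markers of the list were not. Awat2 reached 3.72 CPM in HFSC and 1.85 CPM in IFE, Cidea 5.44 and 4.64 CPM, and Pparg 1.77 and 4.998 CPM. Dgat2 averaged 15.1 CPM in HFSC and 5.81 CPM in IFE. In ORS controls, Awat1 was at 3.11 and 1.42 CPM, Elovl3 at 20.2 and 5.22 CPM, and Mc5r at 1.24 and 0.576 CPM. In ORS knockouts, Awat1 and Mc5r were at 0 and Elovl3 at 0 and 0.113 CPM. The 7 adipocyte markers summed to at most 8.38 CPM in any library, with Adipoq, Lep and Cidec at 0 in all. The part of these cells in the differences was not tested.

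The comparison of knockout with control libraries asks which transcripts differ between libraries labelled Egfr knockout and controls. In HFSC the Egfr level of the libraries labelled knockout was not called lower (334 and 330 CPM, against 390 and 429 CPM in controls), and ORS knockout E359 kept 55.0 CPM. None of the 31 genes was called in HFSC, ORS or IFE by limma, on log2 values or with voom weights. The share of all genes called was 0.00656% in HFSC, 0% in ORS and 0.157% in IFE. At an unadjusted p under 0.05 there were 1 of 31 genes in HFSC (4.06% of all genes), 2 in ORS (4.71%) and 4 in IFE (9.66%). Libraries of the 2 genotypes did not overlap for 8 genes in HFSC (35.8% of all genes), 15 in ORS (30.3%) and 11 in IFE (29.3%). A p that misses the threshold does not show that the levels were alike. Ebp and Nsdhl, the X-linked genes of the list, were not called between genotypes either (log2 differences of 0.02, -0.28 and 0.29 for Ebp and -0.32, -0.70 and -0.12 for Nsdhl in HFSC, ORS and IFE).

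**Figure D4:**
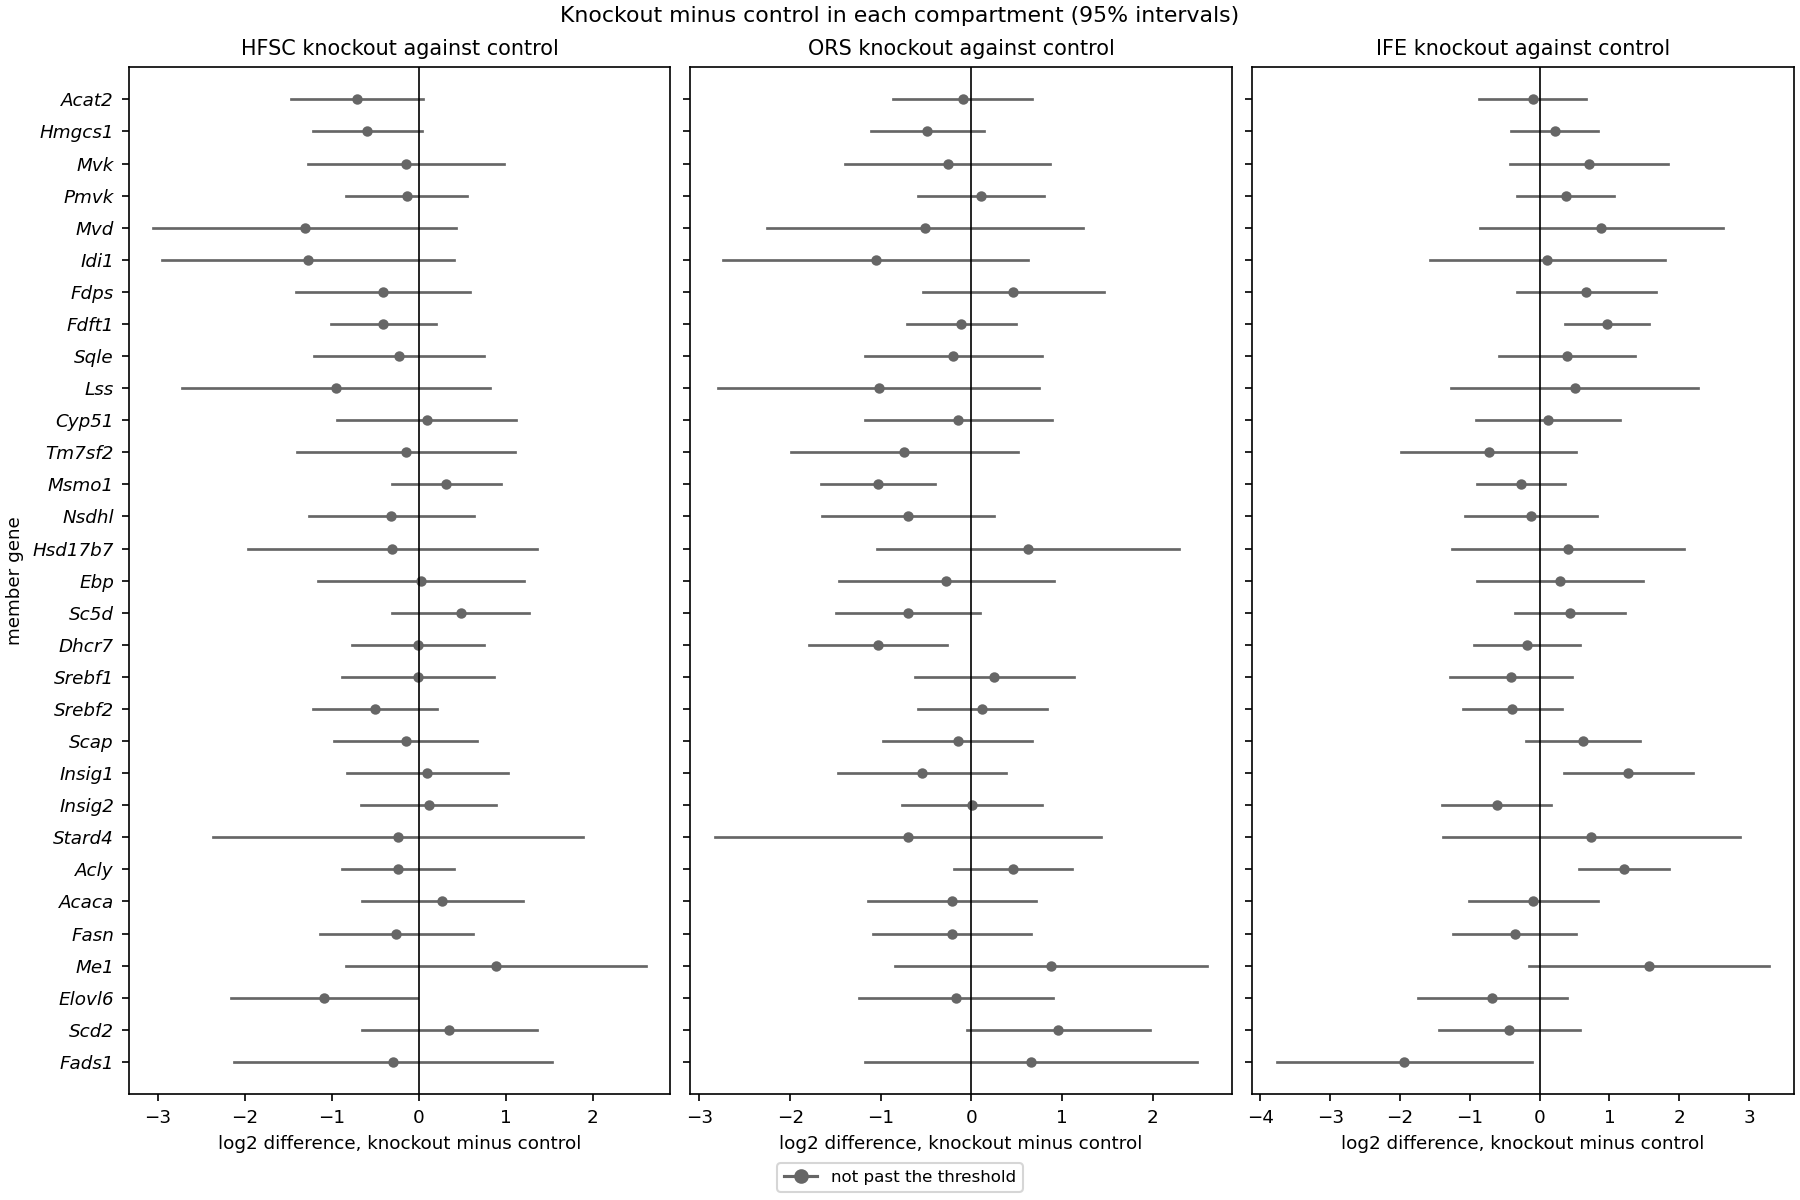
Log2 difference of each tested gene, knockout minus control, in HFSC, ORS and IFE (points), with its 95% interval (lines). No gene passed the threshold. The lines of Acly, Fdft1 and Insig1 in IFE lie above 0. Those of Fads1 in IFE, Msmo1 and Dhcr7 in ORS and Elovl6 in HFSC lie below it.

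In HFSC the genes of smallest p were Elovl6, Hmgcs1, Acat2, Idi1 and Mvd, and all 5 had lower means in the libraries labelled knockout without being called. Elovl6 was at 28.0 and 47.7 CPM in libraries labelled knockout, against 77.1 and 79.6 CPM in controls (log2 difference -1.09, SE 0.49, 95% interval -2.16 to -0.02, unadjusted p = 0.0459, adjusted p = 1). Hmgcs1 was at 217 and 243 CPM, against 472 and 254 CPM in controls (log2 difference -0.59, SE 0.29, 95% interval -1.22 to 0.03, unadjusted p = 0.0614, adjusted p = 1). Acat2 was at 29.8 and 29.1 CPM, against 56.6 and 41.7 CPM (log2 difference -0.71, SE 0.35, 95% interval -1.48 to 0.05, unadjusted p = 0.0645, adjusted p = 1). Idi1 (log2 difference -1.27, SE 0.77, unadjusted p = 0.125, adjusted p = 1) and Mvd, a decarboxylase of the mevalonate chain (log2 difference -1.31, SE 0.80, unadjusted p = 0.126, adjusted p = 1), were at 1.65 to 8.42 CPM and 2.06 to 8.25 CPM. All 8 genes from acetyl-CoA to squalene had a difference below 0, with a median of -0.50, where 7384 of the 15251 genes tested did and the median of all was 0. The count and median moved with the libraries kept: 7 of 8 were below 0 without control L136 (median -0.12), 6 of 8 without knockout L95 (median -0.52), and all 8 without control L94 (median -0.85) or without knockout L97 (median -0.60). L136 was higher than L94 in 24 of the 31 genes (47.0% of all genes were higher in L136). Without L136 the median of all 31 genes was -0.04, against -0.23 with it. The other roles were less one-sided. Below 0 were 6 of 10 genes from squalene to cholesterol (median -0.08), 4 of 6 sensing genes (-0.08) and 4 of 7 fatty acid genes (-0.24).

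In ORS the genes of smallest p were Msmo1, Dhcr7, Scd2, Sc5d and Hmgcs1. Msmo1 was at 96.3 and 161 CPM in knockouts, against 279 and 231 CPM in controls (log2 difference -1.03, SE 0.29, 95% interval -1.65 to -0.40, unadjusted p = 0.00395, adjusted p = 0.614). Dhcr7, the reductase of the last step to cholesterol, was at 41.6 and 45.1 CPM, against 80.5 and 98.8 CPM (log2 difference -1.03, SE 0.35, 95% interval -1.79 to -0.27, unadjusted p = 0.0118, adjusted p = 0.793). Scd2 had the opposite sign at 242 and 259 CPM, against 154 and 108 CPM (log2 difference 0.96, SE 0.46, 95% interval -0.05 to 1.97, unadjusted p = 0.0608, adjusted p = 1). In each of the 3 the libraries of the genotypes did not overlap, yet none was called. Sc5d (log2 difference -0.70, SE 0.36, unadjusted p = 0.0785, adjusted p = 1) and Hmgcs1 (log2 difference -0.49, SE 0.29, unadjusted p = 0.114, adjusted p = 1) followed. Of the 10 genes from squalene to cholesterol, 9 had a difference below 0, with a median of -0.70 (7977 of 15251 genes and a median of -0.02 over all). Leaving out any 1 of the 4 ORS libraries left 7 to 9 of 10 below 0 and medians of -0.52 to -0.72. Other roles were less one-sided. Below 0 were 6 of 8 genes from acetyl-CoA to squalene (median -0.19), 3 of 6 sensing genes (-0.07) and 3 of 7 fatty acid genes (0.46). The median of the 31 genes was -0.20, -0.04 without knockout E358 and -0.44 without knockout E359. Sebocyte markers moved in the same comparison, with sums of 334 and 411 CPM in ORS knockouts and 501 and 662 CPM in ORS controls, and their part was not tested.

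In IFE the genes of smallest p were Acly, Fdft1, Insig1, Fads1 and Me1. Acly, which supplies acetyl-CoA from citrate, was at 116 and 173 CPM in knockouts, against 71.7 and 51.6 CPM in controls (log2 difference 1.21, SE 0.30, 95% interval 0.57 to 1.86, unadjusted p = 0.00151, adjusted p = 0.16). Fdft1, squalene synthase, was at 166 and 131 CPM, against 69.0 and 82.1 CPM (log2 difference 0.96, SE 0.28, 95% interval 0.36 to 1.57, unadjusted p = 0.00449, adjusted p = 0.234). Insig1 was at 27.5 and 24.3 CPM, against 10.6 and 10.3 CPM (log2 difference 1.27, SE 0.42, 95% interval 0.35 to 2.20, unadjusted p = 0.0113, adjusted p = 0.321). In all 3 the knockout libraries lay above both controls, and none was called. Fads1 was at 0.399 and 6.10 CPM in knockouts and 6.27 and 12.4 CPM in controls, not called (log2 difference -1.94, SE 0.84, unadjusted p = 0.0397, adjusted p = 0.478), and it passed only without knockout E359 (log2 difference -3.38, adjusted p = 0.0313), which leaves knockout E358 alone in its group. Me1 was also not called (log2 difference 1.57, SE 0.79, unadjusted p = 0.0709, adjusted p = 0.574). From acetyl-CoA to squalene, 7 of 8 genes had a difference above 0, with a median of 0.52, where 6921 of 15251 genes did and the median of all was -0.01. That median was 0.11 without control E360, 0.17 without knockout E359 and 0.78 without control E341. Over the 31 genes the median was 0.22, and it turned to -0.13 without control E360. The remaining roles were less one-sided. Above 0 were 6 of 10 genes from squalene to cholesterol (median 0.21), 3 of 6 sensing genes (0.11) and 2 of 7 fatty acid genes (-0.36).

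**Figure D5:**
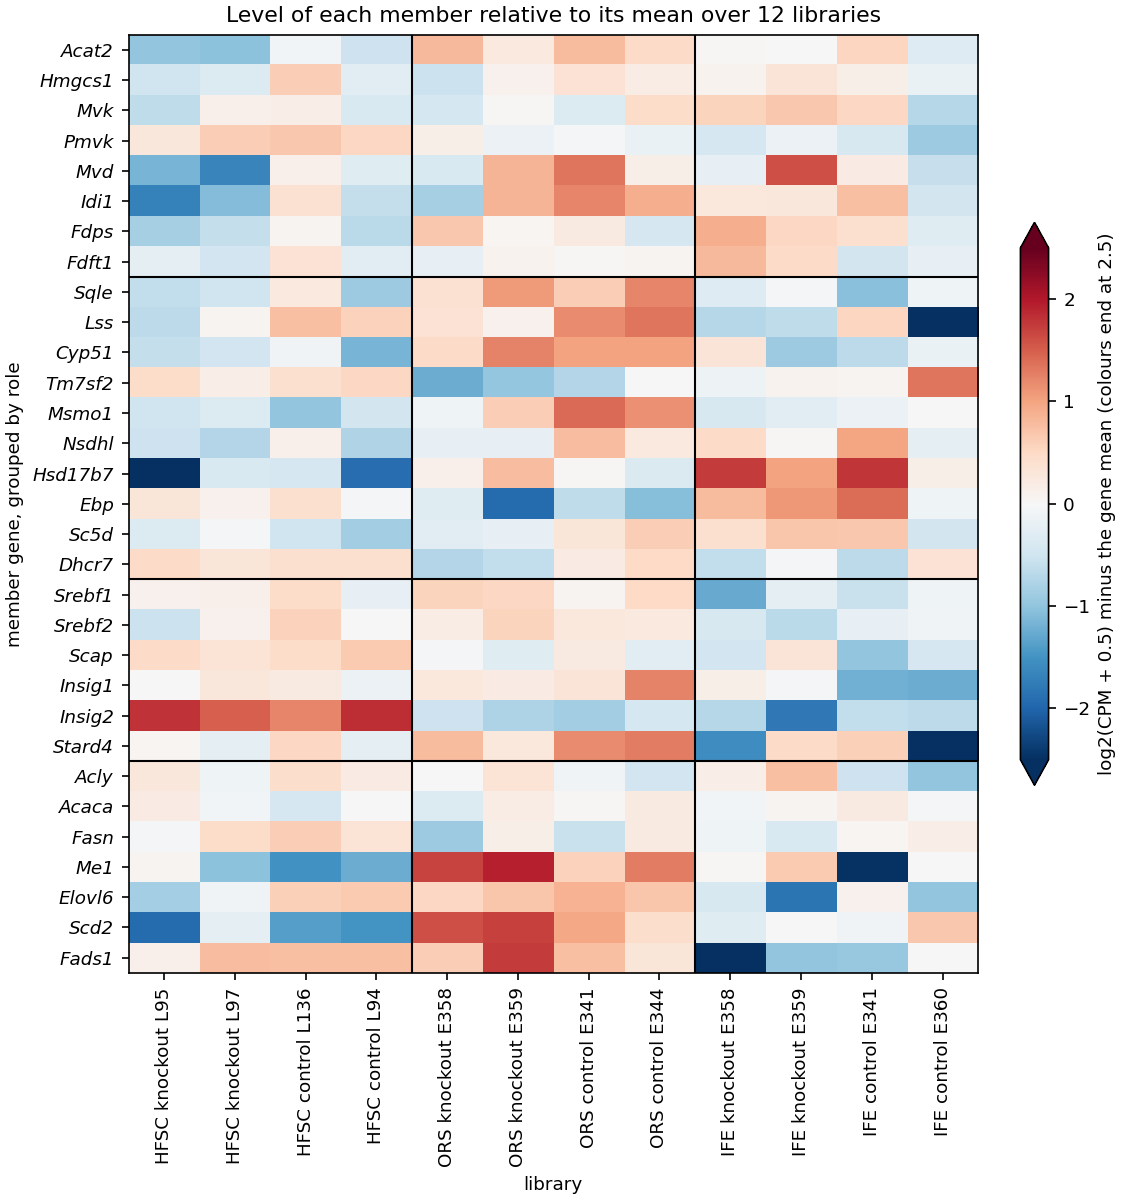
Level of each tested gene in each library, as log2(CPM + 0.5) minus the mean of that gene over the 12 libraries (colour), with horizontal lines between roles and vertical lines between compartments. The Insig2 row is red across the 4 HFSC libraries, and the upper block is bluer in HFSC libraries labelled knockout (Mvd at 3.12 and 2.06 CPM) than in HFSC control L136 (8.25 CPM). It differs less from the other HFSC control, L94 (Mvd at 6.04 CPM).

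Whether the knockout effects differed between compartments was tested as the difference of effects, and none of the 31 genes was called in any of the 3 differences by limma (0% of all genes were called in each). At an unadjusted p under 0.05 there were 2 genes in HFSC minus ORS (4.47% of all genes), 2 in HFSC minus IFE (7.27%) and 4 in ORS minus IFE (6.78%). In HFSC minus ORS the 5 genes of smallest p, none called, were Msmo1 (1.34), Sc5d (1.18), Dhcr7 (1.03), Acly (-0.70) and Srebf2 (-0.62). In HFSC minus IFE they were Fdft1 (-1.37), Acly (-1.45), Hmgcs1 (-0.81), Insig1 (-1.17) and Mvd (-2.19). In ORS minus IFE they were Insig1 (-1.82), Fdft1 (-1.07), Sc5d (-1.13), Fads1 (2.59) and Scd2 (1.39). Msmo1 had the smallest p of the first difference (log2 difference 1.34, SE 0.41, 95% interval 0.45 to 2.23, unadjusted p = 0.00651, adjusted p = 0.864), Fdft1 of the second (log2 difference -1.37, SE 0.39, 95% interval -2.22 to -0.52, unadjusted p = 0.00431, adjusted p = 0.43) and Insig1 of the third (log2 difference -1.82, SE 0.60, 95% interval -3.13 to -0.51, unadjusted p = 0.0106, adjusted p = 0.59).

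For the rest of the pathway, 32 further genes were listed and all were tested, 14 on the sterol side and 18 on the fatty acid side. None was called between genotypes by limma, with 2 at an unadjusted p under 0.05 in HFSC, 2 in ORS and 1 in IFE. Hacd3, a dehydratase of fatty acid elongation, had the smallest p in IFE, at 225 and 179 CPM in knockouts and 103 and 79.9 CPM in controls (log2 difference 1.14, SE 0.25, unadjusted p = 0.000625, adjusted p = 0.124). Elovl1, an elongase of very long chains, had the smallest p in ORS, at 41.9 and 54.3 CPM in knockouts and 90.3 and 109.6 CPM in controls (log2 difference -1.05, SE 0.26, unadjusted p = 0.00188, adjusted p = 0.532). Between compartments, 9 were higher and 2 lower in HFSC against ORS (34.4% called, against 28.6% of all genes). In HFSC against IFE 9 were higher and 3 lower (37.5%, against 36.0%), and in ORS against IFE 8 were higher and 7 lower (46.9%, against 19.4%). Abca1, a cholesterol exporter, was at 356 and 298 CPM in HFSC libraries labelled knockout, 168 and 187 CPM in HFSC controls, 70.8 to 99.6 CPM in ORS libraries and 19.4 to 46.3 CPM in IFE libraries. It was higher in HFSC than in ORS (log2 difference 1.53, SE 0.23, adjusted p = 0.000442) and than in IFE (log2 difference 2.98, SE 0.23, adjusted p = 2.55e-06). Lbr, a lamin receptor that is also a sterol reductase, was lower in HFSC than in ORS (log2 difference -1.55, SE 0.18, adjusted p = 5.3e-05).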

How the data were processed

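Messenger RNA levels in 12 libraries were deposited by the authors as log2 reads per 1000000 reads, 1 value per gene and library. Trim Galore, DESeq2 and mm10 are named without roles, per the submitters' processing notes. Aligner, counter, annotation and strand setting were not given in the sources used here. Each deposited value divides by a library total that exceeds the sum over genes, and genes with no read carry the value of 0.9 read. Whole reads were recovered from the deposited log2 values (at least 99.99% of values whole within 0.2 reads), divided by the reads in genes and scaled by TMM (trims of 30% on ratios and 5% on levels) to CPM. To be tested, a gene needed 10 reads in 2 or more libraries, taken at the median size, and 15 reads over all (15251 of 25965 genes).

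Tests used limma 3.58.1 under R 4.3.3, with a trended and robust prior (statmod 1.5.0), on log2(CPM + 0.5). A single fit covered 12 libraries and 6 groups with 6 residual degrees of freedom. Tests were two-sided, and calls needed an adjusted p under 0.05 (Benjamini-Hochberg over all genes tested). The pseudocount shrinks differences of genes with low levels. Compartments were compared over the mean of both genotypes. Reads of replicate libraries differed beyond counting noise (chi-square per degree of freedom 41.4 to 140.2), so each counted as 1 sample.

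The 32 genes, their roles, the 32 further pathway genes and the marker lists were chosen with earlier results of these data known. Named are all called genes and, where fewer than 5 were called, the 5 of smallest p, with values in every library for called genes and for the 3 of smallest p between genotypes. Exon lengths came from a GENCODE annotation of mm10 and promoters from RefSeq. Other scalings, pseudocounts and filters, voom weights, separate fits, control libraries only, a replicate block and leaving out each library were tried. The setting control libraries only compared the control groups within the fit of all 12 libraries.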

Additional observations from a re-analysis of the deposited data

How the results depend on the processing

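With 2 libraries per group, 1 library could decide a call. Of the 26 calls between compartments among the 31 genes, 13 held without any 1 library and 8 held under every alternative. The members called without 1 library numbered 6 to 9 in HFSC against ORS, 4 to 11 in HFSC against IFE and 3 to 11 in ORS against IFE, with medians of -0.51 to -0.32, -0.24 to 0.01 and 0.25 to 0.48. Between genotypes they numbered 0 in HFSC and ORS and 0 to 1 in IFE, with medians of -0.39 to -0.042, -0.44 to -0.038 and -0.13 to 0.33. With control libraries only, the control groups of 2 libraries each were compared within the fit of all 12 libraries. Then 4, 5 and 2 members were called in HFSC against ORS, HFSC against IFE and ORS against IFE, with medians of -0.19, 0.18 and 0.51. With the deposited values, 22 members were called in HFSC against ORS (median -1.41) and 24 in ORS against IFE (median 1.27), values that divide by the library total and carry no TMM scaling. Over the single genes, 798 comparisons of an alternative with the main value kept side and direction, 93 lost a call, 1 gained one and 0 reversed. The 798 include named genes that were not called in the main fit and so had no call to lose. They therefore do not measure how stable the 26 calls were. Without a filter, Me1, Srebf1 and Scd2 (ORS against IFE), Acat2 (HFSC against IFE) and Ebp (HFSC against ORS) were not called. With separate fits, Insig1, Me1 and Srebf1 in ORS against IFE were not. With voom weights, Insig1 in ORS against IFE and Acat2 in HFSC against IFE were not. The cause was not tested.

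Counts over all genes moved as well. Between genotypes 1 gene was called in HFSC, 0 in ORS and 24 in IFE. Without a filter these were 35, 2 and 42, with voom weights 3 in HFSC and 0 in IFE, with separate fits 5 and 0, and 0 in HFSC with a pseudocount of 0.1 or the deposited values. Without 1 library they were 0 to 6 in HFSC, 0 to 7 in ORS and 5 to 391 in IFE, the 391 without knockout E359. The deposited values gave 7435 in HFSC against ORS (1046 higher and 6389 lower, against 2193 and 2173) and 8003 in ORS against IFE (7444 higher and 559 lower, against 1589 and 1373). Control libraries only gave 2408, 3336 and 1385 in HFSC against ORS, HFSC against IFE and ORS against IFE. The differences of effects had 0 calls, but 2 for HFSC minus ORS with voom weights, 1 for HFSC minus IFE with a pseudocount of 0.1 and 1 each for HFSC minus IFE and ORS minus IFE with the deposited values. Without 1 library they had 0 to 6 in HFSC minus ORS, 0 to 93 in HFSC minus IFE and 0 to 60 in ORS minus IFE.

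Libraries of IFE and ORS share the numbers E341, E358 and E359. The deviations of same-numbered libraries from their group means correlated at 0.0471 over genes for E341 and at 0.0542 for E358 and E359. E358 and E359 make up both knockout groups, so their deviations mirror each other and give the same value. Over the tested genes of the list the correlations were 0.253 for E341 and 0.0985 for E358 and E359. Such correlations cannot tell whether a shared number means the same animal. The numbers were not taken as pairs in the main fit. With the number as a replicate block (consensus correlation 0.10), 8, 8 and 10 members were called in HFSC against ORS, HFSC against IFE and ORS against IFE, and 0 between genotypes, as without it, and over all genes 0 were called in HFSC between genotypes.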
